A study of Rattus norvegicus with 23 samples.

Results

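The interaction of lipopolysaccharide (LPS) with hypoxia-ischemia (HI) was measured in microglia of newborn rats, that is, whether the effect of LPS on a gene was the same with and without HI. For each gene, the effect of LPS without HI (LPS minus Sham) was subtracted from its effect with HI (LPS/HI minus NaCl/HI), on the log2 scale of the deposited values, and all 23 of 23 samples entered this difference. A value of 0 means that LPS multiplied the gene's level by the same factor in both settings. A negative value means that LPS raised the gene less, or lowered it more, with HI, and a positive value the opposite. Of 20301 genes tested, 220 had an interaction past the threshold.

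All pups were Wistar rats of both sexes at postnatal day 7, and no genetic modification was used. Sham pups (n = 6 samples) had a sham operation, with no injection listed, and LPS pups (n = 5 samples) received 0.1 mg/kg LPS into the peritoneum 4 h before the sham operation. NaCl/HI pups (n = 6 samples) received NaCl and LPS/HI pups (n = 6 samples) the same dose of LPS 4 h before ligation of the left common carotid artery, which was followed by 50 min at 8% oxygen. After 24 h, cells were isolated with magnetic beads against CD11b/c. Without HI, a sample was the whole brain of 1 pup, and with HI it was the pooled ipsilateral hemispheres of 2 pups. HI can therefore not be told apart from the tissue taken or from pooling, and the sources differ on the Sham pups. The methods list an injection for every group but Sham, whereas the series' design text can be read as LPS or NaCl for all pups. If Sham pups were not injected, the interaction also holds the difference between an uninjected and an injected control.

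LPS is a component of the outer membrane of Gram-negative bacteria. It is sensed by Toll-like receptor 4 with its partner MD-2 on myeloid cells, and signalling through NF-kB and interferon regulatory factors then switches on cytokines, antigen presentation genes and negative feedback. Microglia, the resident macrophages of the brain, can divide in response to inflammation or injury, and an inflammatory stimulus shortly before HI is a common way to model infection-sensitized birth asphyxia.

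The deposited table holds log2 values without counts, so that depth and counting error are unknown. It was corrected by the authors for 3 surrogate variables, which lowers the spread within groups and can make p-values too low, and nothing says which samples share a litter. The 7 microglial markers P2ry12, Tmem119, Cx3cr1, Sall1, Csf1r, Aif1 and Itgam all had a mean level at or above the percentile 97.0 of all genes, and none had an interaction. Measured by the root mean square difference over all genes, 3 libraries lay nearer to the mean of another group than to that of the other samples of their own group. These were NaCl/HI replicate 4 (nearest to Sham), NaCl/HI replicate 3 (nearest to LPS/HI) and LPS/HI replicate 1 (nearest to NaCl/HI). LPS/HI replicate 2 lay at 0.0588 from the mean of the other LPS/HI samples, whereas the remaining 22 libraries lay between 0.114 and 0.196 from theirs.

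The interaction was mostly a loss of LPS-induced expression. Of the 220 genes (1.08% of those tested), 146 had a negative interaction (0.719%) and 74 a positive one (0.365%), by limma with Benjamini-Hochberg adjustment at an adjusted p under 0.05. An interaction larger than 2-fold was found in 2 genes (0.00985%), of which Olfm4 was one. All 146 genes with a negative interaction were raised by LPS without HI, by a median of 0.63 on the log2 scale, and the median effect of LPS on the same genes with HI was 0.15. In each of the 146, Sham had the lowest and LPS the highest of the 4 group means, and LPS/HI lay in between. The 74 genes with a positive interaction had a median LPS effect of -0.23 without HI and 0.16 with HI. Among these, the LPS group had the lowest mean in 61 and NaCl/HI in 13, and the highest mean was that of LPS/HI in 41 and of Sham in 33. These positions are a description, because the interaction that selected the genes uses the same means. When each library was centred on its own median, the split was 48 positive and 246 negative in place of 74 and 146.

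**Figure D1:**
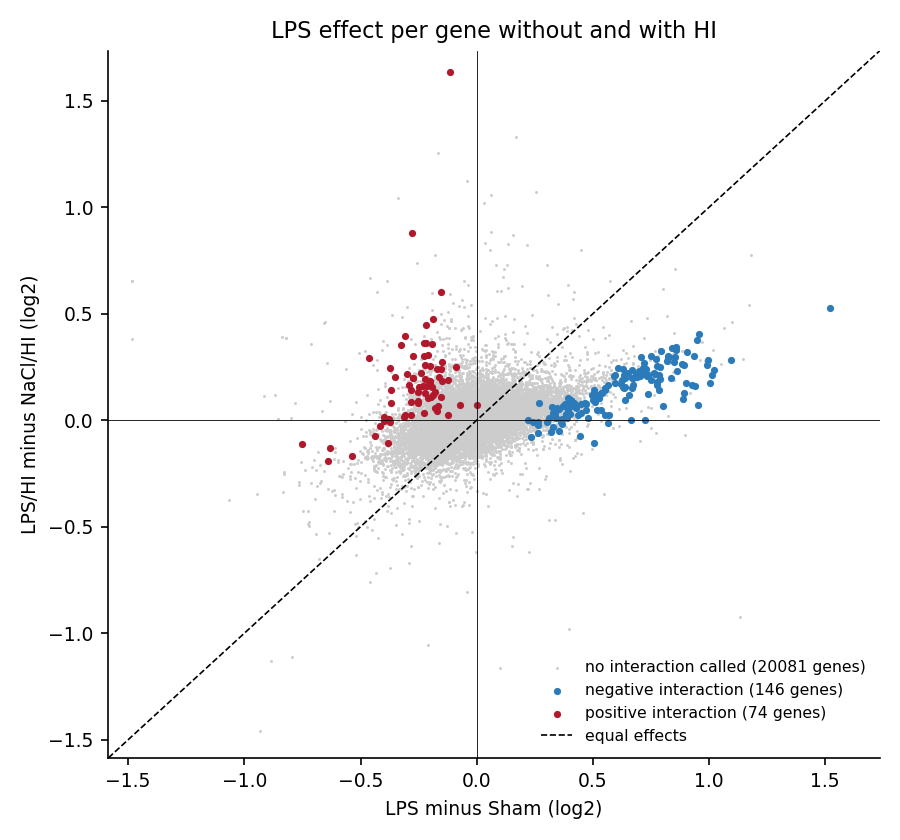
LPS effect per gene without HI (x axis, LPS minus Sham, log2) and with HI (y axis, LPS/HI minus NaCl/HI, log2), where grey points are genes without and coloured points genes with an interaction, and the dashed line marks equal effects. The 146 genes with a negative interaction all lie right of 0 and below the dashed line, with a median LPS effect of 0.15 with HI, and the 74 with a positive interaction lie above it.

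For a description, the 220 genes were sorted by whether the 2 LPS effects passed an unadjusted p of 0.05. In 71 the effect was smaller with HI but still passed (68 of them raised by LPS, median 0.72 without and 0.22 with HI), and in 100 the effect passed only without HI. In 42 both effects passed with opposite signs, all of them genes that LPS lowered without HI (median -0.22) and raised with HI (median 0.20). In 7 the effect passed only with HI, and in 0 was it larger with HI in the same direction. Both opposite effects passed adjustment over all genes in 1 of them, Adamts9. The library numbers run through all 23 samples, and the order of the groups repeats after library 12. On this ground the libraries were split into 2 series, which no label names. The estimates for the 220 genes had the same sign in both series. Because the genes were selected on the pooled value of these libraries, this is largely fixed by the selection and is a description. The median of the negative ones was -0.44 in the first series and -0.48 in the second, and that of the positive ones 0.37 and 0.45.

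**Figure D2:**
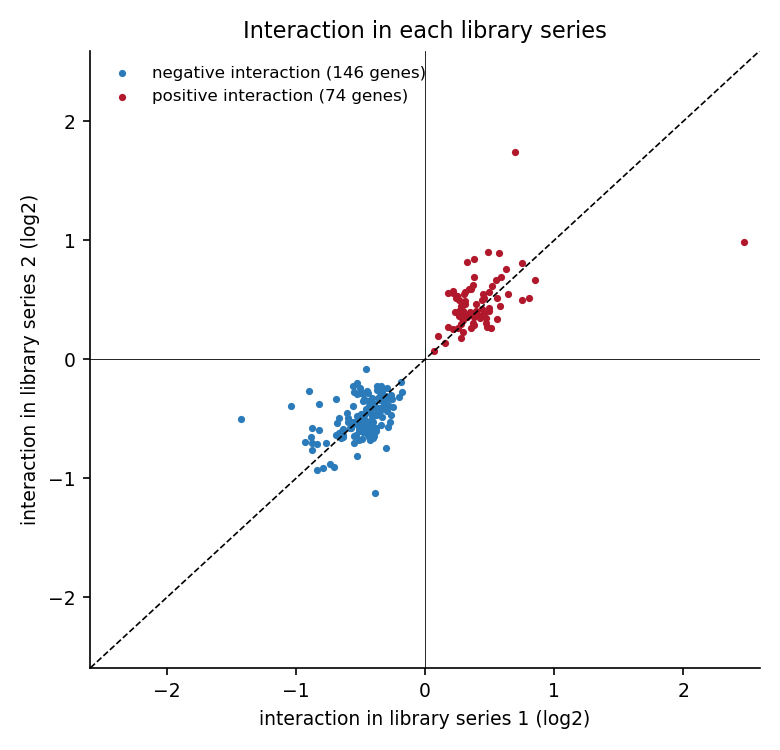
Interaction of the 220 genes computed from the first library series alone (x axis, log2) and the second alone (y axis, log2), with equal values on the dashed line. The medians of the negative ones were -0.44 and -0.48, and that the signs are equal follows largely from selecting the genes on both series together.

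The number of genes called depended on single libraries. It moved by over 1.5 times in 17 of the 23 fits that left out 1 library. Without LPS replicate 2, 32 genes had an interaction, without LPS replicate 4 or LPS/HI replicate 2 there were 40 each, and without NaCl/HI replicate 4 there were 493. Without both NaCl/HI replicate 4 and LPS/HI replicate 1 there were 421, of which 274 were negative and 147 positive. Of 52 genes with an interaction that were examined singly, 19 passed the threshold in each of the 23 fits that left out 1 library, and all 52 kept their sign. Because these genes were selected on the pooled value, the unchanged signs are largely fixed by the selection and are a description.

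Of the 40 gene lists examined, that of mitosis held the most genes with an interaction, all of them with a smaller LPS effect with HI. In this list of 96 measured genes of mitosis and the G2/M phase, 41 had a negative interaction (42.7%, beside 0.719% of all genes) and 0 a positive one, and the estimate was negative in 96 of 96. LPS without HI raised 93 of these genes (17.8% of all genes changed in this comparison), with a median effect of 0.63. With HI the median was 0.22, and 1 gene of the list, Pttg1, passed the test (0.202% of all genes did so). Read the other way, HI without LPS changed 0 of them at an adjusted p under 0.05 by limma and 37 at an unadjusted p under 0.05 (median 0.14). Over all genes, 14.8% had an unadjusted p under 0.05 in this contrast and 0.00985%, 2 in number, passed adjustment, but 556 did so without NaCl/HI replicate 4. With LPS given, 26 were lower in LPS/HI than in LPS (1.94% of all genes, 394 in number, differed, but 81 did so without LPS replicate 4; median -0.26). In bulk samples, fewer dividing cells and less of these transcripts per cell cannot be told apart.

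The mean level of the mitosis list was 9.82 to 10.17 in Sham (median 9.92), 10.40 to 10.78 in LPS (median 10.53), 10.002 to 10.111 in NaCl/HI (median 10.08) and 10.19 to 10.44 in LPS/HI (median 10.26). All LPS samples but the lowest lay above every LPS/HI sample, and every LPS/HI sample lay above every NaCl/HI sample. Every NaCl/HI sample lay above every Sham sample other than Sham replicate 5, which at 10.17 lay above them all. The median interaction of the list stayed between -0.47 and -0.36 when each library was left out in turn, but the number of its genes called ran from 6, without LPS replicate 2, to 62, without Sham replicate 5. Leaving out LPS replicate 4, LPS/HI replicate 2 or Sham replicate 2 gave 9. Leaving out Sham replicate 4, NaCl/HI replicate 1, NaCl/HI replicate 2 or LPS/HI replicate 4 gave 8.

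**Figure D3:**
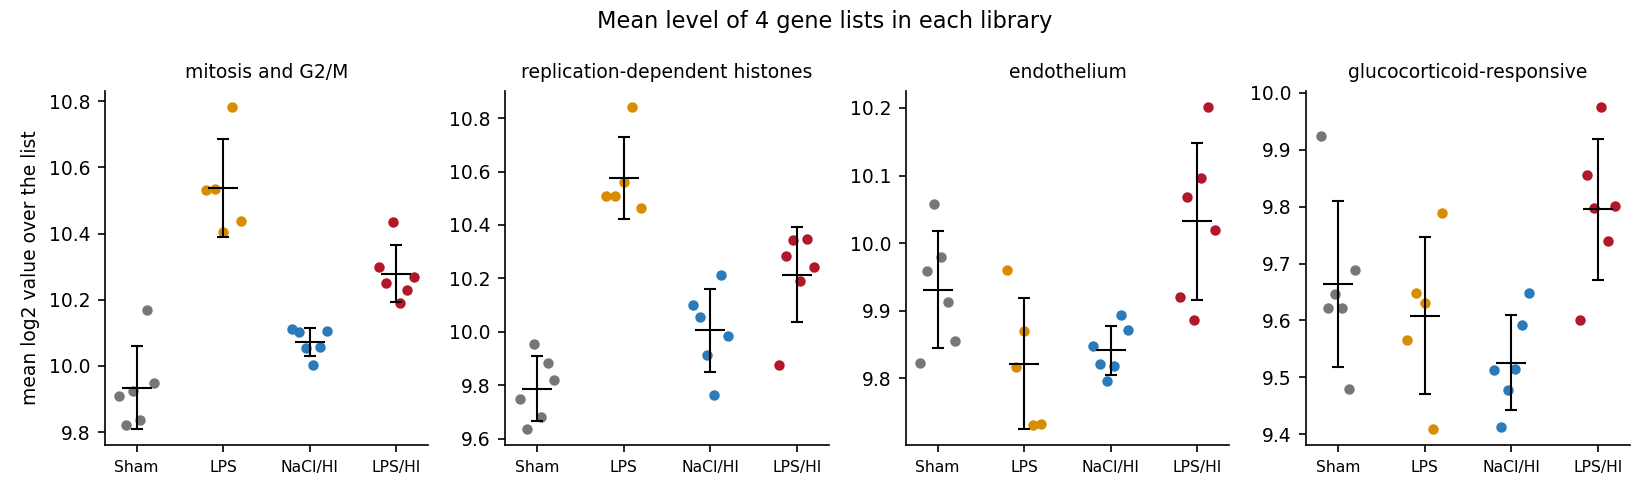
Mean log2 value over each of 4 gene lists (y axis) in each of the 23 libraries by group, with bars for the group mean ± SD. The mitosis list was highest in LPS (10.40 to 10.78), whereas the endothelium list was highest in LPS/HI (9.89 to 10.20) with overlap between groups.

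Ccnf encodes cyclin F, a substrate adaptor of a ubiquitin ligase that acts in G2. Its level was 10.62, 10.59, 10.54, 10.86 and 10.54 in the 5 LPS samples and 9.72 to 10.03 in Sham (median 9.87). In NaCl/HI it was 10.03 to 10.22 (median 10.09), and in LPS/HI 10.23 to 10.45 (median 10.26). No LPS/HI sample reached the lowest LPS sample. LPS raised Ccnf by 0.75 ± 0.06 (SE) without HI and by 0.19 ± 0.06 with HI, and the interaction was -0.56 ± 0.09 (adjusted p = 0.0101, limma). It passed the threshold in all 23 fits with 1 library left out. Kifc1, a minus-end-directed kinesin of the spindle, had an interaction of -0.55 ± 0.10 (adjusted p = 0.0157, limma). Aurkb, the kinase of the chromosomal passenger complex (-0.50 ± 0.09), and Cenpt, a protein of the inner kinetochore (-0.48 ± 0.09), were called too, and all of these also passed in 23 of 23 such fits.

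Further regulators of division were chosen after their values had been seen, for their known roles. Plk1, the kinase that drives entry into mitosis, was 10.64, 10.65, 10.43, 10.89 and 10.47 in the LPS samples and 9.581 to 9.996 in Sham. It was 9.74 to 10.09 in NaCl/HI and 10.09 to 10.40 in LPS/HI, again without overlap with LPS. The interaction was -0.62 ± 0.12 (adjusted p = 0.0188, limma). Cdk1, the mitotic kinase, and Ccnb1, its cyclin B1 partner, had interactions of -0.43 ± 0.10 and -0.52 ± 0.13 (adjusted p = 0.0475 and 0.0489, limma), which passed in 5 of 23 left-out fits each. Foxm1, the transcription factor of many G2/M genes (-0.49 ± 0.12), and Birc5, which encodes survivin (-0.58 ± 0.13), were also called and passed in 6 of 23 each. The common proliferation markers Mki67 (-0.43 ± 0.13, adjusted p = 0.113) and Top2a (-0.44 ± 0.12, adjusted p = 0.0720, limma) did not pass.

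Genes of G2/M often carry the motifs TTTGAA, the core of the cell cycle genes homology region, and CCAAT in their promoters, which are read by the DREAM and MuvB complexes and by NF-Y. The 300-base promoters of the RefSeq table (build GRCr8, 250 bases before to 50 after the start site) are shown for the 2 mitosis genes that the naming rule selected and the table holds, Ccnf (chr10:13783620-13783919, minus strand) and Kifc1 (chr20:5000679-5000978, plus strand), and for Plk1 (chr1:186147408-186147707, plus strand) and Ccnb1 (chr2:33655176-33655475, minus strand). They are written 5′ to 3′ along the gene, and capitals mark TTTGAA or CCAAT on either strand.
Ccnf: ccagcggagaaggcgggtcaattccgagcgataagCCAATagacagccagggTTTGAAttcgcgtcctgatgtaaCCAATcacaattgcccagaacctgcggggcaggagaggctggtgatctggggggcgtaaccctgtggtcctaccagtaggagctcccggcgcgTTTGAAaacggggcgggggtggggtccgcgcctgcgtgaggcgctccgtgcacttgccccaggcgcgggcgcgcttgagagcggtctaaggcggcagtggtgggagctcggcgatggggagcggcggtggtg
Kifc1: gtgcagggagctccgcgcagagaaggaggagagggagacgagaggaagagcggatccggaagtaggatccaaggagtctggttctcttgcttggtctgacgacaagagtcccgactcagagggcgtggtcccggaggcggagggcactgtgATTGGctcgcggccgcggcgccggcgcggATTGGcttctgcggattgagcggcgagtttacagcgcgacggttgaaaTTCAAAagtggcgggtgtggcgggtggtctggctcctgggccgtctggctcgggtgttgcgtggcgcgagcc
Plk1: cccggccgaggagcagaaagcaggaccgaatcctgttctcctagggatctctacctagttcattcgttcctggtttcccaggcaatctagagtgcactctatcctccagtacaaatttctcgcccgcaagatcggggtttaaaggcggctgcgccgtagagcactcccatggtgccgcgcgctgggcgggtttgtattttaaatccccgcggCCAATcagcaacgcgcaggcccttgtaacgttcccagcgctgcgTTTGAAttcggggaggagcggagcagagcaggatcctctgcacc
Ccnb1: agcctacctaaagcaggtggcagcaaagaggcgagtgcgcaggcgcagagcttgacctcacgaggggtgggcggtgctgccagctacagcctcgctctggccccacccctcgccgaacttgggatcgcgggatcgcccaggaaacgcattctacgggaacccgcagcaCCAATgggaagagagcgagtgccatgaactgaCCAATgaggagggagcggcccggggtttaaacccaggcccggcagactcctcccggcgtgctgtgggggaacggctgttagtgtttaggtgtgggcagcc
Both motifs are present in the windows of Ccnf, Kifc1 and Plk1, and that of Ccnb1 holds CCAAT alone. Of the 41 mitosis genes with an interaction, 34 had a promoter in the table. TTTGAA was found in 55.9% of these, CCAAT in 64.7% and both in 38.2%. Of the 84 promoters of the whole mitosis list, 64.3% held TTTGAA, 66.7% CCAAT and 48.8% both, against 18.1%, 37.7% and 7.25% of all 27457 promoters. The genes with an interaction held the motifs no more often than the list as a whole, and a match is only a description of the letters.

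Replication-dependent histones, which are made in S phase to package new DNA, showed the largest median interaction of the 40 lists. Of 19 measured members of the list, 9 had a negative interaction (47.4%, beside 0.719% of all genes) and 18 of 19 estimates were negative. The list missed some names of these genes. Among all 31 measured genes with such a histone symbol, counted after the values had been seen, 15 had a negative interaction. The median LPS effect was 0.86 without and 0.23 with HI over the 19 list members, and 0.86 and 0.20 over the 31 genes. Hist1h4m, which encodes histone H4, was 14.001, 13.966, 13.995, 14.332 and 13.916 in the LPS samples and 13.05 to 13.41 in Sham. It was 13.12 to 13.64 in NaCl/HI and 13.27 to 13.82 in LPS/HI, below every LPS sample. Its interaction was -0.63 ± 0.14 (adjusted p = 0.0339, limma). Hist3h2ba, which the list did not hold, and Hist1h2bo, both for histone H2B, had interactions of -0.76 ± 0.13 and -0.73 ± 0.13 and passed in 23 of 23 left-out fits, whereas Hist1h2bg (-0.83 ± 0.19), also outside the list, passed in 5 and Hist1h2ac (-0.73 ± 0.18) in 4. The linker histones H1f4 and H1f5 (-0.49 ± 0.10 and -0.50 ± 0.11) were called too and passed in 14 and 10, and Hist1h4m in 11. Histone genes are near-identical copies, so that reads may be divided among them and single members are uncertain. Without LPS replicate 4, LPS replicate 2 or LPS/HI replicate 2, 1 gene of the list was called, at medians of -0.53, -0.65 and -0.64. That count was also 1 without Sham replicate 2 or 4, NaCl/HI replicate 1, 2 or 5, or LPS/HI replicate 4. The most called was 16, without NaCl/HI replicate 4.

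For the earlier cell cycle, few genes passed adjustment. Of 76 measured genes of DNA replication and the G1/S transition, 2 had a negative interaction, Asf1b, a histone chaperone (-0.52 ± 0.11), and Tk1, thymidine kinase (-0.37 ± 0.09), which is 2.63% of the list beside 0.719% of all genes. They passed in 11 and 6 of 23 left-out fits. Of the 76 estimates, 67 were negative, and 40 had an unadjusted p under 0.05 (15.1% of all genes did so). LPS without HI raised 34 of these genes and lowered 1 (17.8% of all genes changed; median 0.17), and LPS with HI changed 0 by limma (5 at an unadjusted p under 0.05, which 10.6% of all genes had; median -0.01). For HI without LPS, 45 had an unadjusted p under 0.05 (14.8% of all genes did so).

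Among genes outside cell division, C3, the central component of complement, had the largest negative interaction. It was 12.88, 12.91, 12.17, 12.77 and 12.01 in the LPS samples, 10.75 to 11.19 in Sham (median 11.08), 11.10 to 12.13 in NaCl/HI (median 11.78) and 12.04 to 12.56 in LPS/HI (median 12.27). LPS and LPS/HI overlapped, and the LPS effect was 1.52 ± 0.17 without and 0.53 ± 0.17 with HI. The interaction of -0.99 ± 0.24 (adjusted p = 0.0474, limma) passed in 4 of 23 left-out fits. It was -1.43 in the first and -0.51 in the second library series. Of the 28 measured complement genes, Cd59, an inhibitor of the membrane attack complex, was the other one called (both together 7.14%, beside 1.08% of all genes), with a positive interaction of 0.34 ± 0.08 that passed in 9 of 23 left-out fits.

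Tnfsf13b encodes BAFF, a survival factor for B cells. Its level was 8.81, 8.67, 8.27, 8.94 and 8.36 in the LPS samples and 7.52 to 7.97 in Sham, without overlap. In NaCl/HI it was 8.04 to 8.26 (median 8.22) and in LPS/HI 8.03 to 8.43 (median 8.31). Of the 6 LPS/HI samples, 3 lay above the range of NaCl/HI, 2 below it and 1 within it. LPS raised it by 0.95 ± 0.11 without HI, and the estimate with HI was 0.07 ± 0.11 (interaction -0.88 ± 0.16, adjusted p = 0.0157, limma). Nup210, a membrane protein of the nuclear pore, was 11.86, 11.95, 11.59, 12.25 and 11.81 in the LPS samples and 11.28 to 11.65 in LPS/HI. It was 10.93 to 11.10 in Sham and 11.15 to 11.47 in NaCl/HI. Its interaction was -0.79 ± 0.12 (adjusted p = 0.0101, limma). Both genes passed in all 23 left-out fits.

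Ctsz, the lysosomal cysteine protease cathepsin Z, was 14.25, 14.32, 14.07, 14.37 and 13.99 in the LPS samples and 13.42 to 13.53 in Sham. It was 13.58 to 13.94 in NaCl/HI and 13.82 to 14.12 in LPS/HI, which overlapped both NaCl/HI and LPS. The LPS effect was 0.74 ± 0.07 without and 0.12 ± 0.07 with HI (interaction -0.61 ± 0.10, adjusted p = 0.0121, limma). Ctsz was the 1 gene called among 60 measured lysosomal genes (1.67%, beside 1.08% of all genes), whose median interaction was -0.06. Ifi30, the thiol reductase that unfolds antigens for MHC class II, was 12.85, 12.90, 12.73, 12.98 and 12.93 in the LPS samples and at most 12.68 in any other sample. Its LPS effect was 0.52 ± 0.06 without and 0.05 ± 0.05 with HI (interaction -0.47 ± 0.08, adjusted p = 0.0121, limma). Tapbp, which encodes tapasin of the MHC class I loading complex, had an interaction of -0.41 ± 0.09 (adjusted p = 0.0361, limma) and passed in 8 of 23 left-out fits, whereas Ctsz and Ifi30 passed in 23. Ifi30 and Tapbp were the 2 of 33 measured MHC and antigen presentation genes that were called (6.06%, beside 0.719% of all genes with a negative interaction). At an unadjusted p under 0.05 there were 3 of 33 (9.09%), which is below the 15.1% of all genes. Of the 33 estimates 24 were negative, and over all genes 9136 of 20301.

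Other blunted genes with known roles in innate immunity were chosen after their values had been seen. Tlr1, which pairs with TLR2 to sense bacterial lipopeptides, rose by 0.95 ± 0.10 after LPS without HI. The estimate with HI was 0.38 ± 0.09 (interaction -0.57 ± 0.13, adjusted p = 0.0409, limma). Ly86 encodes MD-1, the partner of RP105, a homologue of TLR4 (interaction -0.40 ± 0.07, adjusted p = 0.0157, limma). Itgal encodes the alpha chain of the integrin LFA-1 (-0.53 ± 0.09). Cyba and Ncf1, 2 subunits of the phagocyte NADPH oxidase, had interactions of -0.42 ± 0.09 and -0.29 ± 0.07, and Hcar2, a receptor for hydroxybutyrate and niacin, -0.50 ± 0.12. Of these, Ly86 and Itgal passed in 23 of 23 left-out fits, Cyba in 12, Tlr1 in 7, Hcar2 in 4 and Ncf1 in 3.

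**Figure D4:**
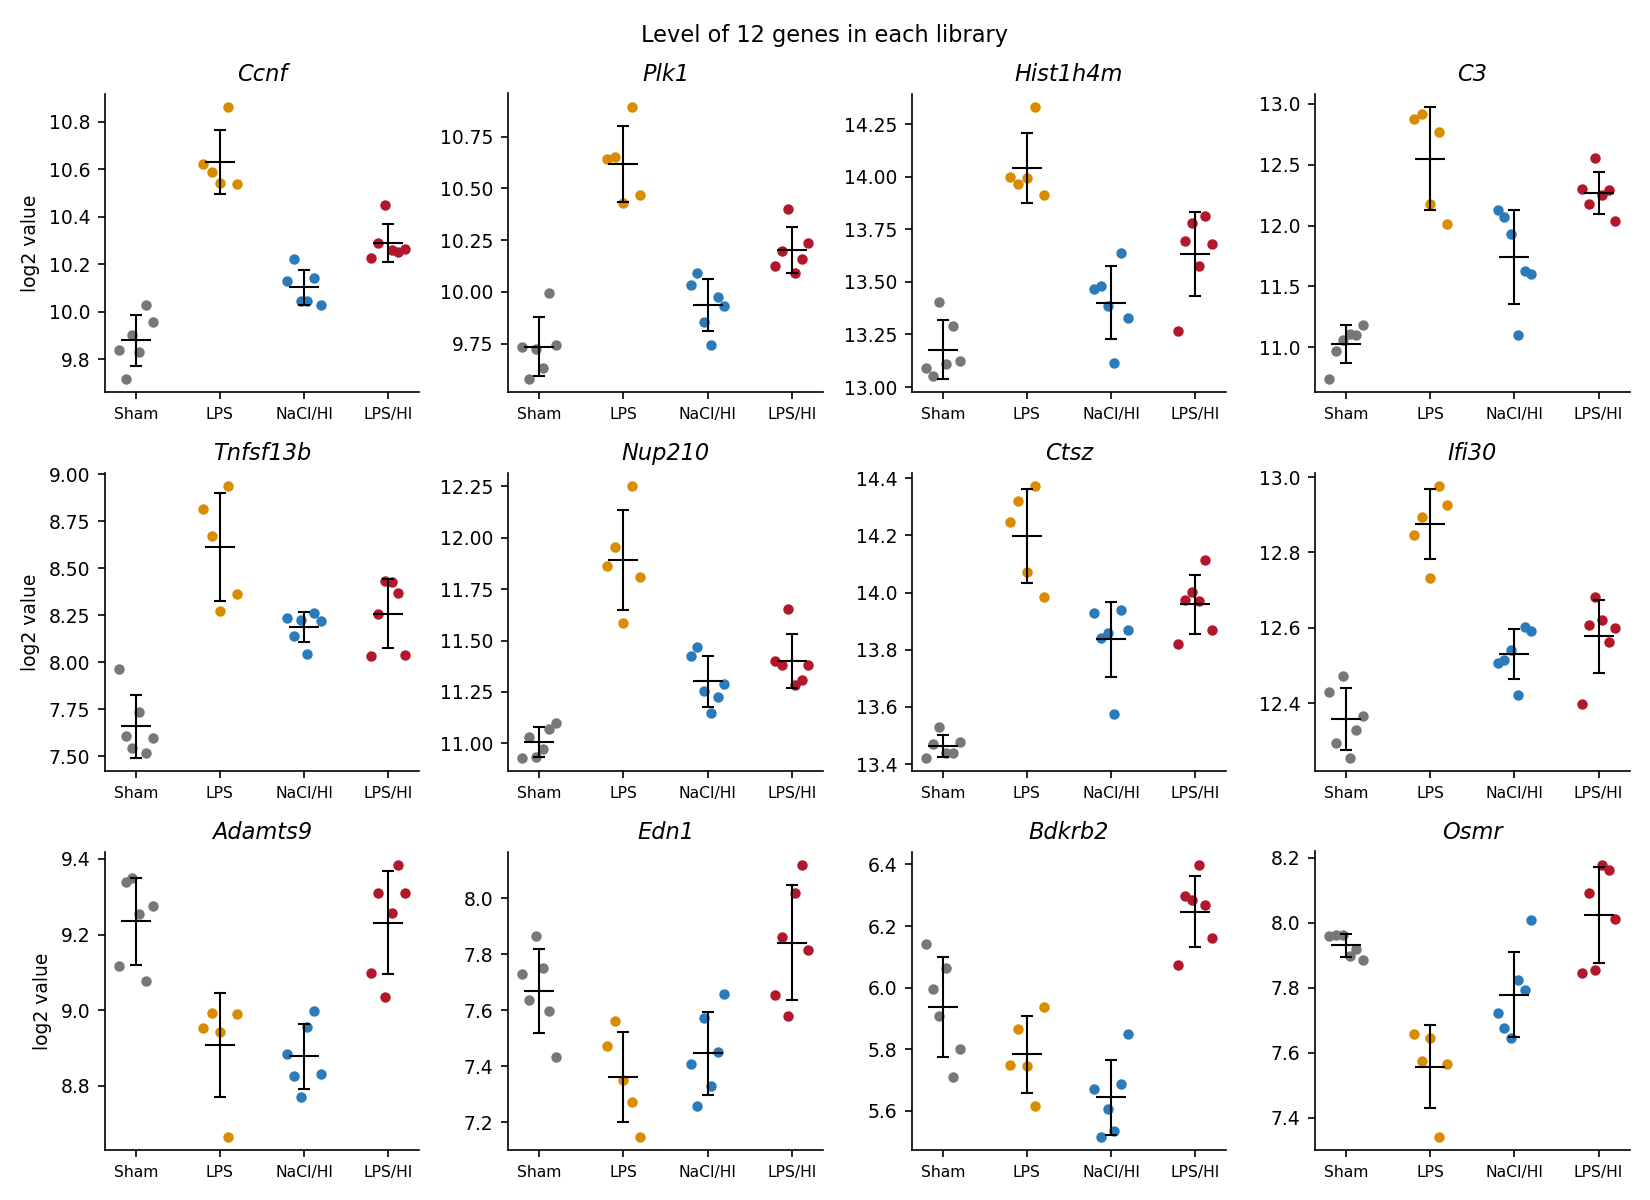
Level of 12 genes (y axis, log2) in each of the 23 libraries by group, with bars for the group mean ± SD. The first 8 genes had a negative interaction, with LPS highest and LPS/HI below it, and the last 4 a positive one, with LPS/HI above both LPS and NaCl/HI on average.

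Several genes had a positive interaction with a negative LPS estimate without HI and a positive one with HI. Adamts9, a protease of proteoglycans, was 8.95, 8.99, 8.94, 8.67 and 8.99 in the LPS samples and 9.08 to 9.35 in Sham, without overlap. With HI the order was the opposite, and LPS/HI samples (9.04 to 9.38) all lay above NaCl/HI samples (8.771 to 8.998). The LPS effect was -0.33 ± 0.07 without HI (adjusted p = 0.00438, limma) and 0.35 ± 0.07 with HI (adjusted p = 0.0445, limma). The interaction was 0.68 ± 0.10 (adjusted p = 0.0101, limma), and it passed in 23 of 23 left-out fits.

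Edn1, the precursor of the vasoconstrictor endothelin-1, was 7.47, 7.56, 7.35, 7.27 and 7.15 in the LPS samples and 7.43 to 7.87 in Sham. It was 7.26 to 7.66 in NaCl/HI and 7.58 to 8.12 in LPS/HI, above every LPS sample. Its interaction was 0.70 ± 0.14 (adjusted p = 0.0270, limma), and it passed in 17 of 23 left-out fits. Bdkrb2, the B2 receptor of the vasodilator bradykinin, was 5.75, 5.87, 5.74, 5.62 and 5.94 in the LPS samples and 5.71 to 6.14 in Sham. It was 5.52 to 5.85 in NaCl/HI and 6.07 to 6.40 in LPS/HI, above every NaCl/HI and LPS sample. The interaction of 0.76 ± 0.12 (adjusted p = 0.0121, limma) passed in 23 of 23 left-out fits. Both genes thus had their highest group mean in LPS/HI. Plat, the tissue plasminogen activator, which starts fibrinolysis, was also called, with an interaction of 0.53 ± 0.11 (adjusted p = 0.0270, limma) that passed in 16. It was chosen after its values had been seen.

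Osmr, the receptor subunit for oncostatin M, was 7.66, 7.57, 7.64, 7.34 and 7.56 in the LPS samples, and every Sham sample was higher (7.88 to 7.96). It was 7.65 to 8.01 in NaCl/HI and 7.85 to 8.18 in LPS/HI. The LPS effect was -0.37 ± 0.08 without HI, which passed the test, and the estimate with HI was 0.25 ± 0.07 (interaction 0.62 ± 0.11, adjusted p = 0.0124, limma). Osmr was the 1 gene called in the list of 49 measured cytokines and cytokine receptors (2.04%, beside 1.08% of all genes). Tnfsf13b and Kitlg, which encode further cytokines and were called, were not in this list. Ccn1, a matricellular protein (0.67 ± 0.13), Igfbp3, a binding protein of insulin-like growth factors (0.75 ± 0.18), and Bmx, a kinase of the Tec family (0.66 ± 0.15), also had a positive interaction, which passed in 17, 5 and 8 of 23 left-out fits. Crim1 differed from these, because LPS lowered it without HI (-0.64 ± 0.06) and its estimate with HI was also negative (-0.19 ± 0.05), with an interaction of 0.45 ± 0.08. Prom1, a membrane glycoprotein, had an interaction of 0.37 ± 0.06, and both it and Crim1 passed in 23 of 23 left-out fits. Olfm4, a glycoprotein of neutrophil granules, had the largest interaction of all (1.75 ± 0.42, adjusted p = 0.0465, limma), which passed in 6 of 23.

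Endothelial markers mostly had positive estimates too. Of 39 measured endothelial genes, 2 were called (5.13%, beside 0.365% of all genes), Flt1, the VEGF receptor 1 (0.38 ± 0.09), and Abcb1a, the efflux transporter P-glycoprotein (0.39 ± 0.08), and 36 estimates were positive. Over all genes, 11165 of 20301 estimates were positive. At an unadjusted p under 0.05 there were 26 of the 39 (66.7%), beside 15.1% of all genes. Positive estimates were also frequent for neurons (32 of 38), pericytes, smooth muscle and fibroblasts (28 of 38) and erythrocytes and platelets (17 of 21), with 0 calls each by limma. For astrocytes 8 of 30 were positive. The median LPS effect of the list was -0.14 without and 0.17 with HI. Its mean level was 9.82 to 10.06 in Sham, 9.73 to 9.96 in LPS, 9.80 to 9.89 in NaCl/HI and 9.89 to 10.20 in LPS/HI. Flt1 was 11.45, 11.24, 11.34, 11.30 and 11.08 in the LPS samples and 11.45 to 11.76 in LPS/HI. It was 11.32 to 11.60 in Sham and 11.36 to 11.44 in NaCl/HI. None of the defining endothelial markers was near 0, with group means of at least 12.24 for Pecam1 and 10.86 for Cdh5, and their interactions were 0.07 ± 0.07 and 0.31 ± 0.10 (adjusted p = 0.686 and 0.121, limma). Kitlg (0.56 ± 0.12), Ecscr (0.55 ± 0.13), Adgrf5 (0.42 ± 0.08) and Ackr3 (0.41 ± 0.10), chosen after their values had been seen, were also called. They passed in 12, 5, 23 and 4 of 23 left-out fits, Flt1 in 9 and Abcb1a in 13. The part of endothelial cells in these values was not tested. Without LPS/HI replicate 1, 7 genes of the list were called, and without LPS replicate 2 there were 0, at list medians of 0.33 and 0.31. The count was also 0 without Sham replicate 2 or 4, LPS replicate 4, NaCl/HI replicate 1, 2 or 5, or LPS/HI replicate 2, 4 or 6.

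Of 42 neutrophil markers, 1 was called, Olfm4 (2.38%, beside 0.365% of all genes with a positive interaction). The median LPS effect of the list was -0.04 without and 0.19 with HI, and 36 estimates of the interaction were positive, beside 11165 of 20301 over all genes. The mean level was 6.01 to 6.33 in Sham, 5.87 to 6.30 in LPS, 5.96 to 6.44 in NaCl/HI and 6.24 to 6.95 in LPS/HI. The glucocorticoid-responsive genes had 28 of 30 positive estimates and 0 calls by limma (15 at an unadjusted p under 0.05, which 15.1% of all genes had), with a median LPS effect of -0.03 without and 0.20 with HI. Immediate early genes had 34 of 39 positive estimates and 0 calls by limma (8 of 39, or 20.5%, at an unadjusted p under 0.05, beside 15.1% of all genes), at a median interaction of 0.17.

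In further lists the median LPS effect was smaller with HI, with few or no calls. The nuclear genes of oxidative phosphorylation had a median LPS effect of 0.28 without and 0.08 with HI, and LPS without HI raised 60 of 73 (17.8% of all genes changed). At an adjusted p under 0.05, 1 had an interaction (1.37%, beside 1.08% of all genes), Sdhb, a subunit of succinate dehydrogenase named after its values had been seen (-0.29 ± 0.06), and 49 of 73 did so at an unadjusted p under 0.05 (15.1% of all genes). With 1 library left out, the number of this list called ran from 0, in 10 of 23 fits, to 15, without NaCl/HI replicate 4. Cytosolic ribosomal proteins (0.17 and 0.06) and the proteasome (0.20 and 0.07) had 0 genes called of 71 and 33 by limma, and 8 each at an unadjusted p under 0.05 (11.3% and 24.2%, beside 15.1% of all genes). Of 63 interferon-stimulated genes, LPS raised 19 and lowered 1 without HI (17.8% of all genes changed) and changed 0 with HI by limma (0.202% of all genes changed; 12 of the list had an unadjusted p under 0.05, beside 10.6% of all genes), with medians of 0.20 and 0.05. Estimates of the interaction were negative in 51, and 0 were called (17 at an unadjusted p under 0.05, beside 15.1% of all genes). In 26 of the 40 lists no gene was called. LPS sensing and NF-kB feedback (1 of 48 called, median interaction 0.04), cytokines and their receptors (1 of 49, 0.06) and complement (2 of 28, 0.00) had medians near that over all genes, 0.01. Of all genes, 1.08% were called. At an unadjusted p under 0.05 there were 2 (4.17%), 17 (34.7%) and 6 (21.4%) in these lists, beside 15.1% of all genes. A median near 0 can thus hold single genes with effects of either sign.

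**Figure D5:**
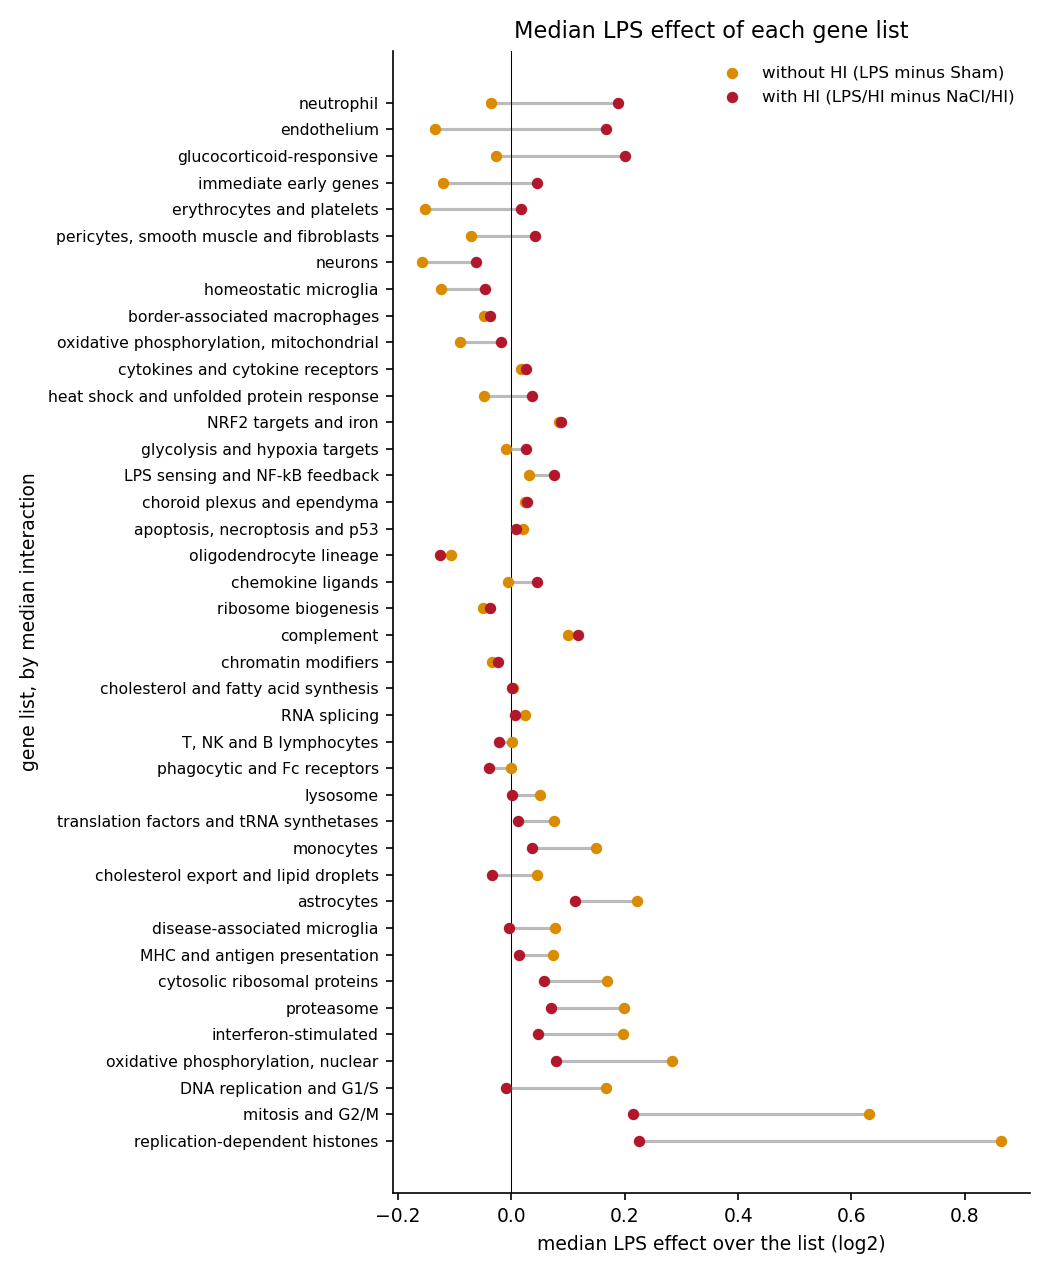
Median LPS effect (x axis, log2) over each of 40 gene lists without HI (LPS minus Sham) and with HI (LPS/HI minus NaCl/HI), with lists ordered by their median interaction (y axis). Histones (0.86 and 0.23) and mitosis (0.63 and 0.22) stand at the bottom, and endothelium (-0.14 and 0.17) is near the top.

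Over the whole LPS response, the effect with HI mostly kept its direction. LPS without HI changed 3606 genes (2072 higher, 1534 lower), and of these 85.9% had the same sign of the LPS effect with HI. The median effect in the direction of the change was 0.26 without and 0.07 with HI. With HI it was 0.24 among those genes that LPS without HI changed over 1.5-fold. The value without HI is inflated, because the genes were selected on it, whereas those with HI come from other samples. Over all genes, 65.1% had the same sign. Set against the NaCl/HI mean, the median was between 0.05 and 0.12 in 5 LPS/HI samples and -0.01 in LPS/HI replicate 1, in which 48.1% of the genes had the same sign.

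LPS with HI changed 41 genes, 31 of them higher, and 22 of these (53.7% of the 41, and 0.610% of the 3606) were also changed by LPS without HI, 21 in the same direction. The count of 41 ran from 1, without NaCl/HI replicate 1, NaCl/HI replicate 2 or LPS/HI replicate 2, to 134, without LPS/HI replicate 1, and it moved by over 1.5 times in 18 of the 23 left-out fits. Of 48 measured genes of LPS sensing and NF-kB feedback, LPS raised 2 with HI, Bcl3 and Tnip1 (0.202% of all genes changed), and 6 without HI (17.8% of all genes changed). These and further genes that LPS raised in both settings were chosen after their values had been seen. Bcl3, an atypical IkB protein, was 8.67, 8.89, 8.71, 8.67 and 8.61 in the LPS samples and 7.79 to 8.15 in Sham. It was 7.98 to 8.26 in NaCl/HI and 8.35 to 9.05 in LPS/HI, so that both LPS groups lay above their controls without overlap. LPS raised it by 0.73 ± 0.10 without HI and by 0.48 ± 0.10 with HI, and the interaction was -0.26 ± 0.14 (adjusted p = 0.403, limma). Tnip1, which restrains NF-kB through A20, rose by 0.25 ± 0.05 and 0.24 ± 0.04, with an interaction of -0.02 ± 0.06. Birc3, a ubiquitin ligase of TNF signalling, rose by 0.48 ± 0.09 and 0.42 ± 0.09, with an interaction of -0.06 ± 0.13. Glrx, which encodes glutaredoxin (0.55 ± 0.06 and 0.39 ± 0.06), Pim1, a serine/threonine kinase (0.67 ± 0.07 and 0.35 ± 0.06), and Mefv, which encodes pyrin (0.85 ± 0.09 and 0.41 ± 0.09), rose in both settings as well. An interaction that missed the threshold does not show equal effects. The metallothioneins Mt1 and Mt2A rose after LPS with HI, by 0.62 ± 0.12 and 0.82 ± 0.15, with estimates of 0.13 ± 0.13 and 0.22 ± 0.16 without HI, and their interactions of 0.49 ± 0.17 and 0.60 ± 0.22 did not pass (adjusted p = 0.178 and 0.196, limma).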

How the data were processed

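RNA was sequenced from 23 samples of CD11b/c-positive cells (6 Sham, 5 LPS, 6 NaCl/HI, 6 LPS/HI), assigned to groups by their titles. Per the submitters' processing notes and the methods, the authors used FastQC 0.11.9, MultiQC 1.14 and kallisto 0.48.0 on mRatBN7.2, then DESeq2, left out genes with fewer than 10 counts, took the rlog and subtracted 3 surrogate variables while keeping the groups. The authors deposited the resulting log2 values, from -1.35 to 23.4 over 20301 genes, identified by symbol. Their transformation draws weakly expressed genes toward their mean. Counts were not used here, so no depth, counting interval or count test is given.

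One fit of all 23 samples was made with limma 3.58.1 in R 4.3.3, with 4 group means and a variance trend. Residual degrees of freedom were set to 16 in place of 19, because the samples spanned 16 dimensions after the group means were subtracted. The p-values of a contrast were adjusted by Benjamini-Hochberg across all genes, none of which was filtered out, and a gene was called at an adjusted p under 0.05. On simulated data with 3 variables removed, no call had the wrong sign, but more calls were false than the adjustment allows. The authors estimated their surrogate variables from the expression values, a step that the simulation did not repeat. The simulation therefore gives no rate of false calls for these data, and how many of the genes called here are false is unknown. The p-values measure the spread between these samples. Errors are standard errors unless stated otherwise.

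The comparison, its gene lists (40, with 1744 genes, 1612 of them measured) and the alternatives were chosen with earlier results of these data known. Genes named were those past a 2-fold interaction, the 8 largest interactions and the 5 smallest p-values per sign, the 3 largest per class of interaction, and up to 4 per list with at least 2 calls. Uncharacterised symbols (11 of the 220 genes) were not named, and genes chosen otherwise are marked. Promoters were matched by symbol to RefSeq (GRCr8), which 13939 of the measured genes had. Their coordinates are not those of the build used by the authors. Figures and summaries were made with Python 3.11.15, numpy 2.4.6, pandas 2.3.3 and matplotlib 3.10.9.

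As alternatives, each library was left out in turn, thresholds were changed, and the fit was run with 19 residual degrees of freedom, without the trend, with robust variances or array weights, with a block for library series or for replicate number, after quantile normalization or median centring, and without the lowest 25% of genes. In the corrected values, same-numbered samples did not deviate together (correlations from -0.475 to 0.470, median -0.0304, over 33 pairs). Subtracting the surrogate variables can remove deviations that samples share, so these correlations cannot show whether the numbers mark pairs. The main fit did not treat the replicate numbers as pairs, and the fit with a replicate block is given below. Results of some single genes are not given here.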

Additional observations from a re-analysis of the deposited data

Results flagged for a closer look

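The LPS effect differed with and without HI in 220 genes by the test of the interaction. Among those described, the difference was negative for Ccnf (-0.56), Plk1 (-0.62), Ccnb1 (-0.52), Hist1h4m (-0.63), C3 (-0.99), Tnfsf13b (-0.88), Nup210 (-0.79), Ctsz (-0.61) and Ifi30 (-0.47), and positive for Adamts9 (0.68), Edn1 (0.70), Osmr (0.62), Flt1 (0.38) and Bdkrb2 (0.76), all on the log2 scale.

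Single samples stood far from the others of their group by Dixon's test in 10 of 84 groups of values, where chance gives about 1 in 20. LPS replicate 4 was high in Ccnf (10.86), Hist1h4m (14.33), the mean of the histone list (10.84) and that of the list of DNA replication and G1/S (10.16), and low in Adamts9 (8.67). Without LPS replicate 4, the interaction was called in 40 genes in place of 220. LPS/HI replicate 3 was high in Ccnf (10.45) and Nup210 (11.65). Sham replicate 5 was high in the mean of the mitosis list (10.17), and 62 genes of this list in place of 41 were called without it. NaCl/HI replicate 4 was low in Ctsz (13.58), and LPS/HI replicate 1 was low in the mean of the histone list (9.88).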

How the results depend on the processing

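The sign of the interaction was the same in all fits for 52 genes with an interaction that were examined singly, with each library left out in turn, and 19 of them passed the threshold in every such fit. That the signs held follows largely from selecting these genes on all libraries together. The counts of called genes moved widely, and the cause of each shift was not tested. In what follows, counts are for an interaction (positive and negative where they moved), an interaction above 2-fold, LPS with HI, HI without LPS and HI with LPS. With 19 residual degrees of freedom they were 666 (274 and 392), 4, 243, 148 and 1006. With no variance trend, 142 genes (86 negative) had an interaction, 0 above 2-fold, LPS with HI changed 11 and HI without LPS 0. Robust variances gave 1 above 2-fold and 0 for HI without LPS. With the library series as a block there were 49 positive interactions, 1 above 2-fold, 22 genes for LPS with HI and 8 for HI without LPS. Median centring gave 48 positive and 246 negative interactions, 6 genes for HI without LPS and 602 for HI with LPS. Quantile normalization gave 1 above 2-fold, 24 for LPS with HI and 10 for HI without LPS. Array weights gave 2207 (1068 and 1139), 19, 2932, 652 and 4059, but their estimation did not converge and gave LPS/HI replicate 2 a weight of 215.6, against 0.319 to 1.70 for the others, so these counts are not usable. An adjusted p under 0.1 gave 556 (222 and 334) and one under 0.01 gave 0 (0 positive, 0 negative), with 3065 genes at an unadjusted p under 0.05. A fold above 1.5 in place of 2 gave 39 genes. With NaCl/HI replicate 4 and LPS/HI replicate 1 both left out, a choice made after seeing the data, the counts were 421 (147 and 274), 6, 84, 718 and 252. Among genes changed over 1.5-fold by LPS without HI, the median LPS effect with HI was 0.24 in place of 0.07.

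With 1 library left out, the interaction was called in 32 to 493 genes (12 to 152 positive, 20 to 341 negative, 0 to 6 above 2-fold), LPS without HI in 2395 to 3954, LPS with HI in 1 to 134, HI without LPS in 0 to 556, and HI with LPS in 81 to 462. The lowest values came without LPS replicate 2 for the interaction and LPS without HI, and without LPS replicate 4 for HI with LPS. The highest came without NaCl/HI replicate 4, except for LPS with HI (without LPS/HI replicate 1).

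With a replicate block, 2 genes had an interaction, Bcl2l14 and Lilrb3 (0 positive, 2 negative, 0 above 2-fold), and the other counts were 2282 for LPS without HI, 8 for LPS with HI, 1 for HI without LPS and 89 for HI with LPS. The median interaction of the mitosis list was then -0.42 with 0 genes called. The samples share only a number, and the block leaves 11 residual degrees of freedom.

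Of the 62 genes examined singly in the alternative fits, a sign change was seen for 2, neither of them called. The interaction of Tnip1 was 0.0051 with quantile normalization, -0.041 to 0.0046 with 1 library left out and 0.11 in the second library series alone. That of Birc3 was -0.11 to 0.0079 with 1 library left out, 0.016 without both libraries named above and 0.19 in the second series alone. Depth is unknown, so how far it limits weakly expressed genes could not be given.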

Other observations

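LPS/HI replicate 2 lay closer to the mean of its group than any other library did to its own, at a root mean square difference of 0.0588 from the mean of the other 5 LPS/HI samples, against 0.114 to 0.196 for the other 22 libraries. Without it, 40 genes in place of 220 had an interaction, LPS with HI changed 1 gene in place of 41, and the median interaction of the mitosis list was -0.42, as with it. In 209 genes the values equalled those of another gene in every library, and 0 of these had an interaction by limma.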
